A study of Homo sapiens with 23 samples.

Results

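The response of HL-60 and OCI-AML3 cells, both acute myeloid leukemia (AML) lines, to CIGB-300 was compared at 3 h on 12 of the 23 arrays of the series. These are all arrays with the time label 3 h, 3 in each of 4 groups: HL-60 treated with 40 μM CIGB-300, HL-60 left untreated, OCI-AML3 treated with 40 μM CIGB-300, and OCI-AML3 left untreated. The line difference is the CIGB-300 effect in HL-60 (treated minus untreated, log2) minus that in OCI-AML3, so a positive value means a higher effect in HL-60. HL-60 models AML of FAB type M2 and OCI-AML3 type M4 with mutated nucleophosmin, and each group is 1 established line. CIGB-300 is a peptide that blocks sites which protein kinase CK2 phosphorylates on its substrates. No control peptide was analysed here, so each effect sets peptide against no peptide. The time label of the untreated OCI-AML3 arrays is 3 h although all 3 titles read 30h. The label was followed, and counts with untreated arrays of 30 min in their place are given as well. Nothing in the labels says that replicates were separate cultures, so p-values measure only the spread between arrays, which may be technical. That spread was estimated from all 23 arrays of the series, including those of 30 min.

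CK2 is a constitutively active serine and threonine kinase with many substrates, among them proteins of the nuclear factor kappa B (NF-κB) pathway. NF-κB dimers are held in the cytoplasm by inhibitors such as IκBα, and once free they switch on chemokine, adhesion and survival genes together with the genes of their own inhibitors. Immediate early genes such as EGR1 and JUN respond within minutes to kinase signals and encode transcription factors that act on later genes.

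The CIGB-300 effect differed between the lines in 266 of 21448 probe sets tested (limma, adjusted p under 0.05, Benjamini-Hochberg over all probe sets). The effect was higher in HL-60 for 162, or 0.755% of those tested, and lower in HL-60 for 104, or 0.485%. An unadjusted p under 0.05 was reached by 2391 probe sets. Of the called differences, 92 of the higher and 53 of the lower were at least 2-fold, and 26 and 2 were at least 4-fold. The absolute effect was larger in HL-60 for 228 of the 266, with a median of 0.92 in HL-60 against 0.22 in OCI-AML3 on the log2 scale. Over all probe sets the median line difference was -0.03. With untreated arrays of 30 min in both lines, 212 were higher and 156 lower, and 119 and 56 of those above were among them. With these arrays in OCI-AML3 alone, 221 were higher and 250 lower, and 131 and 71 were shared. A fit to the 12 arrays of 3 h alone gave 93 higher and 45 lower, and 89 and 37 were shared.

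Most called differences were changes called in HL-60 and not in OCI-AML3. Among the 162 higher in HL-60, 126 rose in HL-60 with no call in OCI-AML3, 24 rose in both lines, 3 rose in HL-60 and fell in OCI-AML3, 2 fell in OCI-AML3 with no call in HL-60, and 7 were called in neither line. Among the 104 lower in HL-60, 68 fell in HL-60 with no call in OCI-AML3, 20 rose in OCI-AML3 with no call in HL-60, 4 fell in HL-60 and rose in OCI-AML3, 3 fell in both, 2 rose in both and 7 were called in neither. Over all probe sets, 562 rose in HL-60 (2.62%) and 633 fell (2.95%), while in OCI-AML3 156 rose (0.727%) and 53 fell (0.247%). A call in a single line was mostly no called line difference. Of 488 probe sets that rose by call in HL-60 alone, 126 had a called line difference, and of 613 that fell there alone, 68 did. Of 81 that rose by call in OCI-AML3 alone, 20 did, and of 34 that fell there alone, 2 did.

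**Figure D1:**
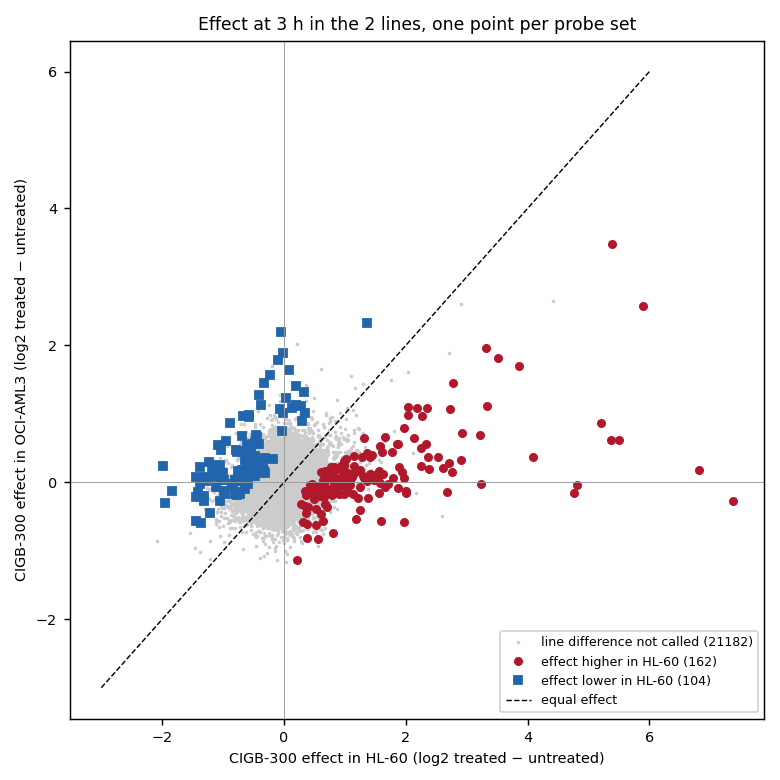
CIGB-300 effect at 3 h in HL-60 (x axis) and OCI-AML3 (y axis), log2 treated minus untreated, with 1 point per probe set and a dashed line where the effects are equal. Red circles (162) have a higher and blue squares (104) a lower effect in HL-60, and the red circles spread along the HL-60 axis.

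Each line difference is the gap between the lines in treated cells minus the gap in untreated cells, each gap being HL-60 minus OCI-AML3. Over all probe sets a gap was called for 39.5% in treated and 38.9% in untreated cells. Of the 162 differences higher in HL-60, the lines differed in treated levels only for 46, in untreated levels only for 29, and in both for 87. Of the 104 lower in HL-60, the numbers were 16, 18 and 70. In the higher set the gap was wider in treated than in untreated cells for 63, narrower for 35 and turned in sign for 64. In the lower set it was wider for 44, narrower for 33 and turned for 27. Among the probe sets with an untreated gap only, that gap had the same sign in the untreated arrays of 30 min for 28 of 29 in the higher and 17 of 18 in the lower set, and was called there for 27 and 12. Among those with a treated gap only, the untreated gap kept its sign at 30 min for 32 of 46 and 11 of 16. It was called there for 17 and 1 of these, so the treated-only class depends in part on which untreated arrays are used.

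**Figure D2:**
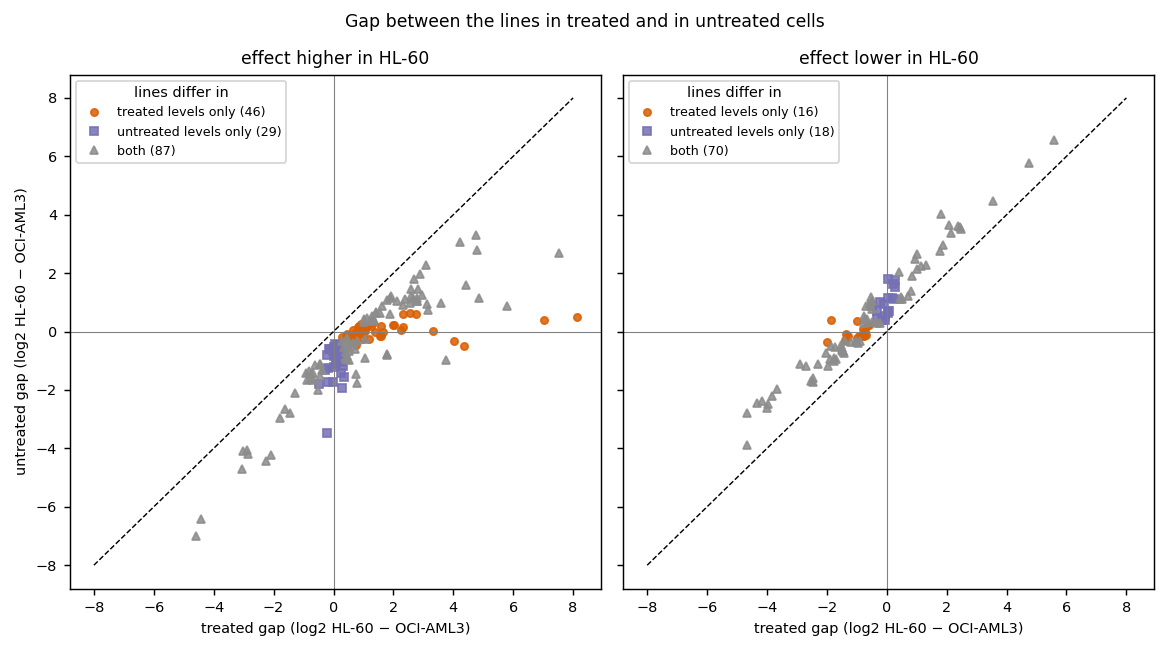
Gap between the lines (log2 HL-60 minus OCI-AML3) in treated cells (x axis) and untreated cells (y axis) for probe sets with a called line difference, with a dashed line where the gaps are equal. Effects higher in HL-60 are at left (46 treated levels only, 29 untreated levels only, 87 both) and effects lower in HL-60 at right (16, 18 and 70).

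Promoters of 5 genes are shown because NF-κB genes recur among the called differences and kappa B motifs are the sites NF-κB dimers bind. The windows are from RefSeq (GRCh38.p14), 250 bases before to 50 after the start of the gene. Capitals mark matches to GGANTTTCC or GGANTTCCC on either strand. The 5 were not taken by size of the line difference, and all but CCL1 hold a match. They do not stand for the called genes, whose shares are given below. The promoters of TNFAIP6, CCL3L3, CCL20, CCL3 and GPR18, with larger differences than NFKBIA, held none. Those of NFKB2, NFKBID, TRAF1 and CYLD, NF-κB genes with a called difference, also held none. NFKB1, REL and MAP3K8, whose differences were not called, held 1 match each, and RELA, not called either, held none. CCL1, with no match, lies at chr17:34363184-34363483 (minus strand), NFKBIA at chr14:35404700-35404999 (minus), ICAM1 at chr19:10270870-10271169 (plus), TNFAIP3 at chr6:137867009-137867308 (plus) and DUSP6, the one of the 5 with a lower effect in HL-60, at chr12:89352452-89352751 (minus).
CCL1: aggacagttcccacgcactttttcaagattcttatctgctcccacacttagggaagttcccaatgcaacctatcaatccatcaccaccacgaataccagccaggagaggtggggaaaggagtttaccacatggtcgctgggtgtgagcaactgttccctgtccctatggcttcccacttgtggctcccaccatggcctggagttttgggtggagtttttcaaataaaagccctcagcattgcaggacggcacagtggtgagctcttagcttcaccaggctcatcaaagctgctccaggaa
NFKBIA: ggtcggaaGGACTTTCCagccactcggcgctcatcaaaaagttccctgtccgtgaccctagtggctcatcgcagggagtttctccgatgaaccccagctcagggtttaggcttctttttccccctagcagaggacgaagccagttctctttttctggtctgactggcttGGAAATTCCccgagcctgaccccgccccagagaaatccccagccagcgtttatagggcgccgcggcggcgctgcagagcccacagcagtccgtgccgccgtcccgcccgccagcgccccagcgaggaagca
ICAM1: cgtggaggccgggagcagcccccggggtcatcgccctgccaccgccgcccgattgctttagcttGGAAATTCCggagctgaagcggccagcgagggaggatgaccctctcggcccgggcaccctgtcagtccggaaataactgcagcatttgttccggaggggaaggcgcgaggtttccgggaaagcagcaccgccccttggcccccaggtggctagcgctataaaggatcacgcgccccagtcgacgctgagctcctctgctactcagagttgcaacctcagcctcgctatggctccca
TNFAIP3: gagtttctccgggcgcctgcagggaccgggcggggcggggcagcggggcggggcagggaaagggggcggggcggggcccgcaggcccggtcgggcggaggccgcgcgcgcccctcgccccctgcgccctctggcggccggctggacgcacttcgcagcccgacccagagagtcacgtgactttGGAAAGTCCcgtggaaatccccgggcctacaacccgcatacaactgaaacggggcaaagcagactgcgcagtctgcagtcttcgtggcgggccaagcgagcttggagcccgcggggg
DUSP6: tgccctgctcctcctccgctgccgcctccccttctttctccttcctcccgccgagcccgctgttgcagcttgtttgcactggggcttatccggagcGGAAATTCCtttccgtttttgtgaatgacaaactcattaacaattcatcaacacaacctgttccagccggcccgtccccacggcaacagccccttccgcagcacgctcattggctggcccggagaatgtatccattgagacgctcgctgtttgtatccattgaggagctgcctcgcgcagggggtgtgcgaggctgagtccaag

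Of 142 named genes with a higher effect in HL-60, 111 had a promoter in the table, and of 91 with a lower effect, 74 did. A kappa B match stood in 10 of the 111 (9.01%), in 4 of the 74 (5.41%) and in 433 of 14236 promoters of measured genes (3.04%), against 2.98% of all 27305 promoters. The higher genes with a match were CFLAR, CXCL8, F3, ICAM1, IFNGR2, IL18RAP, NFKBIA, RILPL2, TASL and TNFAIP3, and the lower ones DUSP6, FCHSD2, NFKBIZ and SLAMF6. NFKBIA held 2 matches. The AP-1 motif TGANTCA stood in 9.91% of the higher, 6.76% of the lower promoters, against 5.75% of those of measured genes and 7.76% of all. The CRE motif TGACGTCA stood in 1.8% and 1.35%, against 2.61% and 1.98%, and the EGR motif GCGTGGGCG in 0.901% and 0%, against 1.13% and 0.784%. These shares are descriptions with no test, and a missing match says only that these letters are not in the window.

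Chemokines, secreted proteins that attract leukocytes, held several of the largest differences among named genes, after CD69 and TNFAIP6. Of 30 measured, 7 had a higher effect in HL-60, none a lower one and 23 were not called, with a median line difference of 0.16. In HL-60 8 rose, in OCI-AML3 4 rose, and none fell.

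CCL2, a monocyte attractant, had levels of 11.68, 11.64 and 11.60 in treated and 6.74, 6.25 and 6.29 in untreated HL-60 cells (log2), against 7.64, 7.51 and 7.72 in treated and 6.69, 7.00 and 6.58 in untreated OCI-AML3 cells. Treated arrays lay above untreated ones in both lines, and those of HL-60 lay far above all others. The line difference was 4.34 (SE 0.20, limma adjusted p = 1.89e-10), from effects of 5.21 in HL-60 against 0.87 in OCI-AML3. The lines differed in treated levels only, by 4.02, against -0.33 in untreated cells (adjusted p = 0.084).

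CCL1, which attracts monocytes and T cells, stood at 11.53, 11.72 and 11.41 in treated and 6.79, 6.80 and 6.65 in untreated HL-60 cells (log2), against 3.44, 3.99 and 4.63 in treated and 4.02, 3.94 and 4.21 in untreated OCI-AML3 cells. The HL-60 groups were far apart and the OCI-AML3 groups overlapped. The line difference was 4.85 (limma adjusted p = 1.51e-08), and the gap was 7.53 in treated and 2.69 in untreated cells. The 95th percentile of 612 negative control features was 4.6 on the 3 h arrays, and both OCI-AML3 means of CCL1 were under it.

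CCL3, a monocyte and macrophage attractant, was at 11.02, 11.15 and 11.18 in treated and 6.01, 4.55 and 5.11 in untreated HL-60 cells (log2), against 7.86, 7.55 and 7.97 in treated and 4.59, 5.78 and 5.27 in untreated OCI-AML3 cells. The gene rose in both lines, by 5.89 in HL-60 against 2.58 in OCI-AML3. The difference of 3.31 (limma adjusted p = 9.38e-05) was one of treated levels only, since the untreated gap was 0.01. CCL3L3, a near-identical copy whose probes may share signal with CCL3, had a difference of 4.74.

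CCL20, the ligand of CCR6, measured 9.60, 9.60 and 9.57 in treated and 5.14, 5.39 and 5.96 in untreated HL-60 cells (log2), against 4.68, 4.74 and 4.74 in treated and 3.77, 5.24 and 4.04 in untreated OCI-AML3 cells. The lines differed by 3.73 in effect, with the treated HL-60 arrays standing alone. CCL5, a T cell attractant, had levels of 9.14, 9.47 and 9.35 in treated and 7.26, 7.30 and 7.39 in untreated HL-60 cells (log2), against 11.30, 11.51 and 11.41 in treated and 11.66, 11.57 and 11.40 in untreated OCI-AML3 cells. It rose in HL-60 by 2.00, yet stayed below OCI-AML3, so the gap was narrower in treated (-2.09) than in untreated cells (-4.22). CXCL8, the neutrophil attractant interleukin 8, rose in both lines and differed by 1.11 with an adjusted p of 0.0481 (limma), close to the threshold.

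**Figure D3:**
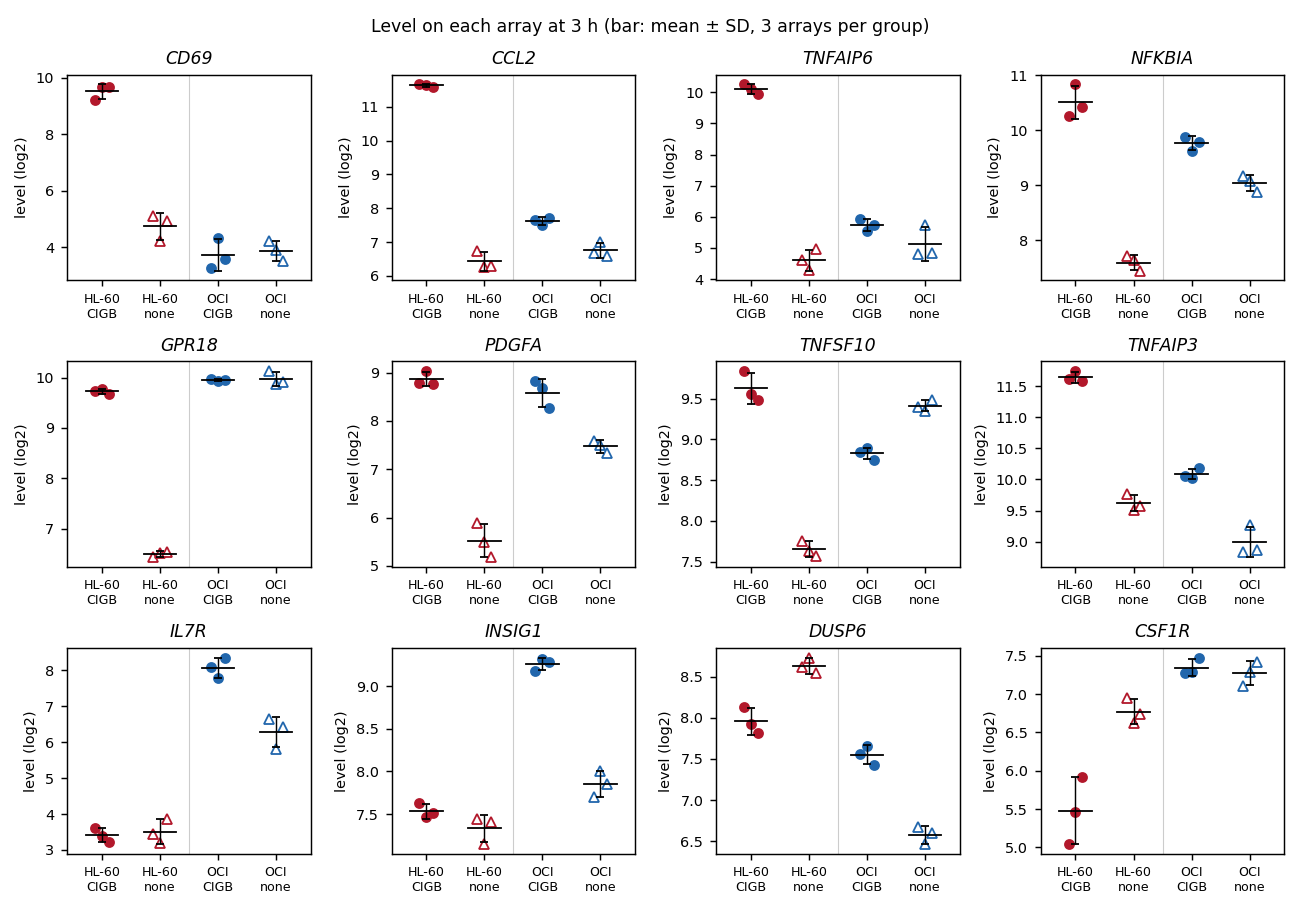
Level of 12 genes on each array at 3 h (y axis, log2), in treated (filled circles) and untreated (open triangles) HL-60 and OCI-AML3 cells, with bars for the mean ± SD of 3 arrays. Treated HL-60 cells stand alone for CD69, CCL2 and TNFAIP6, untreated HL-60 cells stand alone for GPR18, and INSIG1 is highest in treated OCI-AML3 cells.

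The 2 probe sets with the largest differences have no single gene symbol in the annotation. TC1700007620.hg.1 stood at 10.78, 10.92 and 10.84 in treated and 4.01, 3.11 and 3.32 in untreated HL-60 cells (log2), against 3.01, 2.34 and 2.81 in treated and 3.16, 2.65 and 3.15 in untreated OCI-AML3 cells. The difference was 7.64, and that of TC1700007626.hg.1 was 6.62, both from treated levels only. For both probe sets the means of untreated HL-60 and of treated and untreated OCI-AML3 cells were under the 4.6 of the negative controls, so the sizes rest on signal at background in all groups but treated HL-60.

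CD69 and TNFAIP6 had the largest differences among genes with a symbol. CD69, an early activation antigen, was at 9.20, 9.66 and 9.67 in treated and 5.09, 4.20 and 4.94 in untreated HL-60 cells (log2), against 3.25, 4.34 and 3.58 in treated and 4.22, 3.89 and 3.51 in untreated OCI-AML3 cells. The OCI-AML3 groups overlapped and the HL-60 groups did not. The difference was 4.92 (95% interval 4.10 to 5.74, limma adjusted p = 3.61e-07). All OCI-AML3 arrays of CD69 lay under the 4.6 of the negative controls. TNFAIP6, a hyaluronan-binding protein induced by TNF, measured 10.27, 10.12 and 9.94 in treated and 4.60, 4.27 and 4.95 in untreated HL-60 cells (log2), against 5.93, 5.55 and 5.74 in treated and 4.79, 5.74 and 4.83 in untreated OCI-AML3 cells. Its difference was 4.88, with gaps of 4.37 in treated and -0.51 in untreated cells, only the first of them called.

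Among 21 leukocyte activation markers measured, 4 had a higher effect in HL-60 and none a lower one. LAX1, a membrane adaptor of lymphocytes, differed by 2.01, and SLA, an adaptor that dampens antigen receptor signals, by 1.71. GBP2, a guanylate-binding protein induced by interferon, was the single called gene among 35 interferon-stimulated genes, with a difference of 2.82. The median of that list was -0.02. CD70, the ligand of CD27, rose in HL-60 to 5.71, 6.12 and 5.76, against 2.46, 3.42 and 3.89 in untreated HL-60 cells. These untreated HL-60 arrays were all under the 4.6 of the negative controls. OCI-AML3 held 10.59, 10.35 and 10.42 treated and 10.29, 10.32 and 10.13 untreated, so CD70 stayed higher in OCI-AML3 throughout. IL1RN, the interleukin 1 receptor antagonist, had the same pattern and a difference of 1.99.

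Of 14 genes of NF-κB subunits and inhibitors, 4 had a higher effect in HL-60, 1 a lower one and 9 were not called, with a median of 0.46. In HL-60 8 rose, in OCI-AML3 5 rose, and none fell. NFKBIA, the gene of IκBα, had levels of 10.26, 10.85 and 10.42 in treated and 7.70, 7.63 and 7.44 in untreated HL-60 cells (log2), against 9.88, 9.62 and 9.79 in treated and 9.16, 9.08 and 8.88 in untreated OCI-AML3 cells. The difference was 2.20 (SE 0.18, limma adjusted p = 4.53e-07). HL-60 was below OCI-AML3 in untreated cells (gap -1.45) and above it in treated cells (gap 0.75). Its promoter is the one above with 2 kappa B matches.

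NFKB2, the p100 and p52 subunit, stood at 8.41, 8.51 and 8.03 in treated and 5.60, 5.90 and 5.27 in untreated HL-60 cells (log2), against 8.36, 8.05 and 7.77 in treated and 6.97, 7.00 and 7.03 in untreated OCI-AML3 cells. The treated arrays of the lines overlapped and the untreated ones did not. NFKB2 thus differed in untreated levels only, and its line difference was 1.66 (limma adjusted p = 0.00403). RELB, a partner of p52, differed by 1.30 (adjusted p = 0.0295), also with an untreated gap only (-1.04). The RELB call was lost in 8 of 12 fits that each left out 1 array, and with the untreated OCI-AML3 arrays of 30 min it was 1.00 (adjusted p = 0.11).

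NFKBID, an atypical nuclear inhibitor, had a difference of 1.76 from treated levels only. NFKBIZ, another nuclear inhibitor, had an effect of 0.14 in HL-60 against 1.09 in OCI-AML3, a difference of -0.95 (limma adjusted p = 0.00416). NFKB1 differed by 0.58, REL by 0.46, RELA by -0.15, the kinase gene MAP3K8 by 0.81 and GADD45B by 0.30, none of them called.

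Of 17 NF-κB feedback and adaptor genes, 5 were higher in HL-60 and none lower: TRAF1, TNFAIP3, CYLD, CFLAR and TANK. TRAF1, an adaptor of TNF receptors, was at 8.81, 8.48 and 8.55 in treated and 5.76, 5.83 and 5.97 in untreated HL-60 cells (log2), against 5.04, 5.09 and 4.98 in treated and 5.29, 4.45 and 4.92 in untreated OCI-AML3 cells. It rose in HL-60 with a difference of 2.61. TNFAIP3, the ubiquitin-editing enzyme A20, measured 11.61, 11.75 and 11.58 in treated and 9.76, 9.51 and 9.58 in untreated HL-60 cells (log2), against 10.06, 10.02 and 10.18 in treated and 8.83, 9.27 and 8.87 in untreated OCI-AML3 cells. It rose in both lines and differed by 0.93 (limma adjusted p = 0.00811, and 0.0523 with the 12 arrays of 3 h alone). ICAM1, an adhesion molecule for leukocyte integrins, had levels of 7.61, 7.48 and 7.63 in treated and 5.30, 5.39 and 5.62 in untreated HL-60 cells (log2), against 7.07, 7.20 and 7.53 in treated and 6.24, 6.57 and 7.07 in untreated OCI-AML3 cells. Its difference was 1.49, and the lines differed in untreated levels only.

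**Figure D4:**
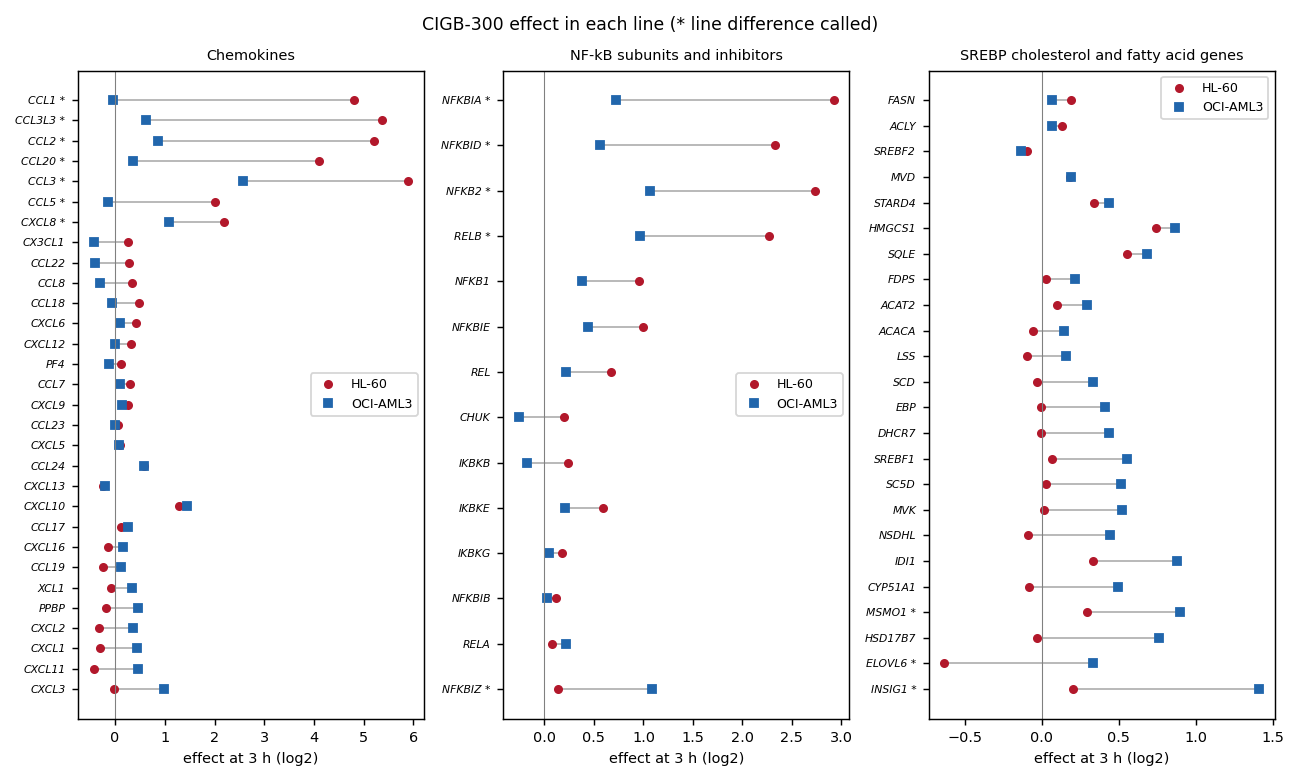
CIGB-300 effect at 3 h (x axis, log2) in HL-60 (red circles) and OCI-AML3 (blue squares) for each measured chemokine, NF-κB subunit or inhibitor, and SREBP gene, with a star where the line difference was called. Red lies right of blue for the 7 starred chemokines, and blue lies right of red for the 3 starred SREBP genes.

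Of 29 immediate early transcription factors, 4 had a higher and 1 a lower effect in HL-60 and 24 were not called, although 21 rose in HL-60 against 16 in OCI-AML3. EGR3, a zinc finger factor, stood at 9.93, 10.05 and 9.92 in treated and 5.02, 4.12 and 4.62 in untreated HL-60 cells (log2), against 9.64, 9.64 and 9.56 in treated and 5.94, 6.83 and 5.63 in untreated OCI-AML3 cells. It rose strongly in both lines, though its untreated HL-60 mean of 4.59 was at the 4.6 of the negative controls. The treated gap was 0.36 (adjusted p = 0.247) and the untreated gap -1.55, giving a difference of 1.90 (limma adjusted p = 0.0036, and 0.0614 with the 12 arrays of 3 h alone).

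IER3, an early response gene tied to survival, and KLF10, a Krüppel-like repressor, rose in both lines with differences of 1.36 and 1.05. EGR1 differed by 1.32 (limma adjusted p = 0.0435), a call lost in 11 of 12 fits without 1 array. JUN, a subunit of AP-1, was at 8.68, 8.74 and 8.99 in treated and 7.42, 7.55 and 7.37 in untreated HL-60 cells (log2), against 8.57, 8.64 and 8.65 in treated and 6.11, 6.72 and 6.05 in untreated OCI-AML3 cells. Its effect was higher in OCI-AML3, 1.35 in HL-60 against 2.33 in OCI-AML3, and the lines differed in untreated levels only.

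Strong responses without a called difference were also seen. NR4A1, an orphan nuclear receptor, had effects of 2.91 in HL-60 against 2.61 in OCI-AML3, and the line difference of 0.29 had a 95% interval of -0.21 to 0.80. IL1B, the gene of interleukin 1 beta, had 1.16 in HL-60 against 1.37 in OCI-AML3, with a difference of -0.21 (-0.57 to 0.14). In all, 71 probe sets rose in both lines and the difference was called for 26 of them, and 16 fell in both with 3 called.

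GPR18, a G protein-coupled receptor of leukocytes, measured 9.73, 9.77 and 9.67 in treated and 6.43, 6.51 and 6.54 in untreated HL-60 cells (log2), against 9.97, 9.93 and 9.95 in treated and 10.13, 9.88 and 9.91 in untreated OCI-AML3 cells. The treated HL-60 arrays came close to both OCI-AML3 groups. The gap was -0.23 in treated and -3.48 in untreated cells, and -3.45 in the untreated arrays of 30 min. PDGFA, a platelet-derived growth factor chain, had levels of 8.79, 9.04 and 8.77 in treated and 5.89, 5.49 and 5.19 in untreated HL-60 cells (log2), against 8.82, 8.68 and 8.26 in treated and 7.58, 7.50 and 7.33 in untreated OCI-AML3 cells. The lines again differed in untreated levels only, with a line difference of 2.23.

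Of 34 chemokine and leukocyte G protein-coupled receptors, 7 had a higher and 3 a lower effect in HL-60, with a median of 0.21. CXCR5, the receptor of CXCL13, differed by 1.71, and PTGER4, a prostaglandin E2 receptor, by 1.18. GPR183, an oxysterol receptor, stood at 10.49, 10.55 and 10.35 in treated and 10.36, 10.37 and 10.39 in untreated HL-60 cells (log2), against 8.54, 8.36 and 8.23 in treated and 7.14, 6.81 and 6.24 in untreated OCI-AML3 cells. It rose in OCI-AML3, and the difference was -1.56. With the untreated OCI-AML3 arrays of 30 min it was -0.62 (limma adjusted p = 0.255).

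There were 7 probe sets that rose in one line and fell in the other, 6 of them with a gene symbol. TNFSF10, the death ligand TRAIL, was at 9.84, 9.55 and 9.48 in treated and 7.76, 7.63 and 7.56 in untreated HL-60 cells (log2), against 8.84, 8.89 and 8.75 in treated and 9.40, 9.35 and 9.49 in untreated OCI-AML3 cells. It had effects of 1.98 in HL-60 against -0.58 in OCI-AML3, a difference of 2.56. SLA and CXCR4, the CXCL12 receptor, moved the same way, and CXCR4 differed by 0.69, or by 0.40 (limma adjusted p = 0.074) with untreated arrays of 30 min in both lines.

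DUSP6, a phosphatase that acts on ERK, measured 8.13, 7.93 and 7.81 in treated and 8.61, 8.73 and 8.55 in untreated HL-60 cells (log2), against 7.56, 7.66 and 7.43 in treated and 6.67, 6.46 and 6.60 in untreated OCI-AML3 cells. It moved the other way, with a difference of -1.65 (limma adjusted p = 4.8e-05). KLF5, a Krüppel-like factor, and ANKRD33B shared that direction, with -0.97 and -1.11.

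Cytokine receptors were split, with 5 higher and 3 lower of 34 probe sets. IL7R, the interleukin 7 receptor chain, had levels of 3.62, 3.39 and 3.22 in treated and 3.45, 3.19 and 3.88 in untreated HL-60 cells (log2), against 8.10, 7.79 and 8.35 in treated and 6.64, 5.82 and 6.41 in untreated OCI-AML3 cells. All HL-60 arrays were under the 4.6 of the negative controls, and the gene rose in OCI-AML3. The difference was -1.88 (limma adjusted p = 0.00107). IL2RG, the common gamma chain, also rose in OCI-AML3, with a difference of -0.94. Both HL-60 means were under the negative control level for 17 of the 104 lower and 4 of the 162 higher probe sets, and both OCI-AML3 means for 20 and 17. Over all probe sets the shares were 39% for HL-60 and 38.5% for OCI-AML3.

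CSF1R, the macrophage colony-stimulating factor receptor, stood at 5.05, 5.47 and 5.92 in treated and 6.95, 6.62 and 6.74 in untreated HL-60 cells (log2), against 7.28, 7.28 and 7.47 in treated and 7.10, 7.29 and 7.42 in untreated OCI-AML3 cells. It fell in HL-60 alone by call, and the difference was -1.37 (limma adjusted p = 0.0102). With untreated arrays of 30 min in both lines it was -1.10 (adjusted p = 0.0556). IL1RAP, the interleukin 1 receptor accessory chain, rose in HL-60 with a difference of 1.39.

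GNLY, which encodes the cytotoxic protein granulysin, was at 4.76, 3.996 and 4.45 in treated and 3.69, 4.62 and 5.05 in untreated HL-60 cells (log2), against 6.14, 6.34 and 6.34 in treated and 4.17, 3.99 and 4.07 in untreated OCI-AML3 cells. The HL-60 groups overlapped and GNLY rose in OCI-AML3, for a difference of -2.25. Both HL-60 means and all untreated OCI-AML3 arrays were under the 4.6 of the negative controls, so only treated OCI-AML3 stood clear of background. ADAMTS1, an extracellular protease, measured 6.25, 6.48 and 6.48 in treated and 6.66, 6.82 and 6.70 in untreated HL-60 cells (log2), against 10.59, 10.54 and 10.54 in treated and 9.15, 9.15 and 9.01 in untreated OCI-AML3 cells. It rose in OCI-AML3 and differed by -1.78 (limma adjusted p = 4.08e-06). IGFBP3, an insulin-like growth factor binding protein, shared this pattern with -1.69.

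Most of the 104 lower probe sets fell in HL-60. LDLRAD4, a regulator of TGF-beta signalling, had levels of 6.07, 5.87 and 5.98 in treated and 7.87, 7.90 and 7.66 in untreated HL-60 cells (log2), against 6.81, 6.41 and 6.26 in treated and 6.88, 6.78 and 6.21 in untreated OCI-AML3 cells. It fell in HL-60, and the difference was -1.71. SLAMF6, a lymphocyte surface receptor, stood at 5.09, 5.19 and 3.80 in treated and 7.06, 6.78 and 6.19 in untreated HL-60 cells (log2), against 2.70, 2.65 and 3.34 in treated and 2.60, 2.41 and 2.99 in untreated OCI-AML3 cells. All OCI-AML3 arrays of SLAMF6 were under the 4.6 of the negative controls, so a fall there could not be read. Its difference was -2.22 (limma adjusted p = 0.0122), and -1.66 (adjusted p = 0.0892) with untreated arrays of 30 min in both lines.

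Cholesterol and fatty acid genes driven by SREBP had the lowest median line difference of the 43 gene groups examined, -0.39 over 24 genes. INSIG1, a sterol-sensing regulator of SREBP, was at 7.62, 7.46 and 7.51 in treated and 7.45, 7.14 and 7.40 in untreated HL-60 cells (log2), against 9.18, 9.32 and 9.29 in treated and 7.70, 8.005 and 7.85 in untreated OCI-AML3 cells. It rose in OCI-AML3, with a difference of -1.21 (SE 0.15, limma adjusted p = 8.97e-05). MSMO1, a sterol synthesis enzyme, differed by -0.60, and by -0.52 (adjusted p = 0.0537) without untreated HL-60 replicate 1. ELOVL6, a fatty acid elongase, fell in HL-60 and differed by -0.96, a call lost in 8 of 12 fits without 1 array. The other 21 were not called. In OCI-AML3 8 of the 24 rose and none fell, and in HL-60 2 rose and 1 fell. HMGCS1, which acts early in cholesterol synthesis, rose in both, by 0.74 in HL-60 against 0.87 in OCI-AML3.

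Of 20 NRF2 genes of the oxidative stress response, 3 were higher in HL-60 and none lower. These were NFE2L2 itself (0.81), the cystine transporter gene SLC7A11 (0.74) and the autophagy adaptor gene SQSTM1 (0.68). NFE2L2 gave 0.27 (limma adjusted p = 0.533) with untreated arrays of 30 min in both lines. Of 22 p53 target genes none was called, and CDKN1A, the p21 gene, had a difference of 0.45 with a 95% interval of -0.30 to 1.20. None of 17 heat shock genes, 18 cell cycle inhibitors, 26 ribosome biogenesis genes or 4 genes of CK2 subunits and nucleophosmin was called. Over all probe sets 0.755% were called higher and 0.485% lower, so the lack of calls in lists this small says little.

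**Figure D5:**
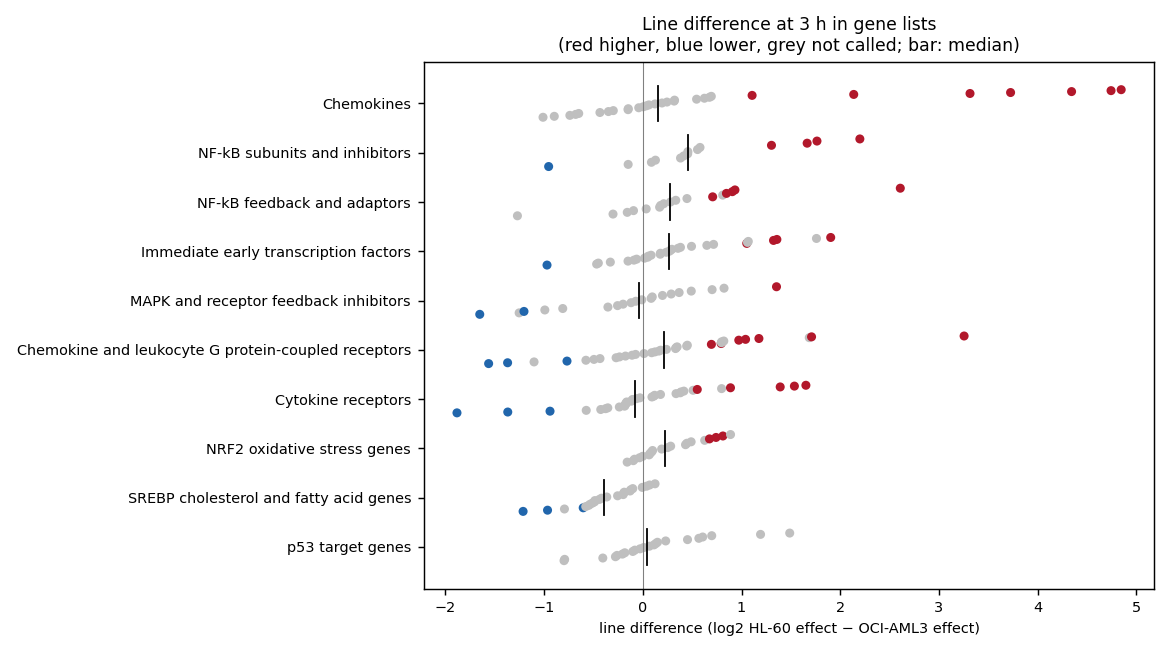
Line difference (x axis, log2) of each measured gene in 10 gene groups, with red for higher, blue for lower, grey for not called and a bar for the median. Of the 10 groups, chemokines reach furthest to the right, to 4.85, and the SREBP group has the median furthest to the left, -0.39.

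At 30 min the line difference was called for 16 probe sets. Of the 162 probe sets higher in HL-60 at 3 h, 10 were called at 30 min and 107 had the same sign there, and of the 104 lower, 1 was called and 55 had the same sign. Signs in the lower set were thus split almost evenly at 30 min. The median line difference there was 0.112 in the higher and -0.0244 in the lower set. The line difference itself differed between 3 h and 30 min for 37 probe sets (0.173%). The untreated OCI-AML3 group of 30 min has 2 arrays.

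MEIS1, a HOX cofactor known from leukemia with mutated nucleophosmin, was at 3.04 to 4.43 in treated and 3.07 to 3.57 in untreated HL-60 cells, against 7.61 to 7.95 in treated and 7.38 to 8.06 in untreated OCI-AML3 cells. CDKN2A, named as mutated in HL-60, gave 8.20 to 8.65 over the HL-60 arrays against 7.27 to 7.67 over the OCI-AML3 arrays, so its signal was not lower in HL-60. Of 11 housekeeping genes none was called, with differences from -0.11 to 0.35. None of the 10 T and NK cell, 6 B cell, 7 erythroid or 9 stromal and epithelial markers was called. With so low a share called over all probe sets, the lack of calls in these short lists says little. The median over probe sets was 5.40 to 5.44 on HL-60 arrays against 5.55 to 5.60 on OCI-AML3 arrays. The median of the negative controls was 2.52 to 2.58 on treated and 2.45 to 2.48 on untreated HL-60 arrays and 2.27 to 2.43 on OCI-AML3 arrays, and its part in the results was not tested.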

How the data were processed

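Expression in the HL-60 and OCI-AML3 cultures was read on Clariom S arrays. The authors made RMA values on a log2 scale (background adjustment, quantile normalization, robust summarization) and left out 1 untreated OCI-AML3 array of 30 min. Versions are not given in the sources used here. Values were used as deposited, and 5741 control features of 27189 were set aside.

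limma 3.58.1 in R 4.3.3 fitted 1 mean for each of 8 groups to 23 arrays, and contrasts gave the line difference, the effects and the gaps. A call is a Benjamini-Hochberg adjusted p under 0.05 over 21448 probe sets. Array number limits the precision. The code was tested on simulated data. Figures used Python 3.11.15 and matplotlib 3.10.9.

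Members and gene lists were chosen with earlier results of these data known. Named genes were, among called genes, up to 12 each way by size, up to 10 with opposite effects and up to 3 per gene list. Up to 4 each way with untreated gaps only and with turned gaps were added. Called or not, genes measured by PCR in the study and genes checking the labels were named too. TNF and CSF1, also measured by PCR there, are given no value here. CCL5, CXCL8, NFKBIZ, CFLAR, TANK, KLF10, JUN, NR4A1, IL1B, PTGER4, IL2RG, IL1RAP, HMGCS1, both unnamed probe sets and genes named only for a motif were chosen after their values were seen.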

Additional observations from a re-analysis of the deposited data

Results flagged for a closer look

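For 13 genes picked by the rule for named genes, each with a called line difference at 3 h, that difference was itself different from the line difference at 30 min (limma, adjusted p under 0.05 over all probe sets), and these were marked for a closer look. The 3 h value exceeded the 30 min value by 4.66 for TNFAIP6 (adjusted p = 4.24e-05), 4.06 for CCL1 (0.000178), 3.73 for CCL20 (0.0098), 2.61 for CCL3L3 (0.0167), 2.56 for TRAF1 (0.0098), 2.41 for DIXDC1 (0.00061), 2.26 for CCL2 (0.00112), 2.20 for PDGFA (0.00938), 1.84 for TNFSF10 (0.00237) and 1.37 for SLA (0.0298). The difference between the times was -0.85 for RUNX1 (adjusted p = 0.0098), -1.35 for ANKRD33B (0.0451) and -1.54 for DUSP6 (0.0218). CCL2 and CCL3L3 already had a line difference of 2.08 and 2.13 at 30 min, and the other 11 had values from -0.11 to 0.79 there. The 30 min contrast rests on 2 untreated OCI-AML3 arrays. Groups of 3 arrays were not examined for single arrays that stand apart.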

How the results depend on the processing

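Every called probe set that an alternative still tested kept its sign, except 4 with untreated arrays of 30 min in both lines. With the 12 arrays of 3 h alone, 93 were higher and 45 lower in HL-60, with 32, 18 and 88 differing in treated levels only, untreated levels only and both, 369 rises and 316 falls in HL-60, and 72 rises and 7 falls in OCI-AML3. Of the 79 named genes with a call, 27 lost it there, among them EGR3, CXCR5, EGR1, TNFAIP3, NFE2L2, SLC7A11, RUNX1, MSMO1, ELOVL6, GFI1B, CSF1R and SLAMF6. With a variance trend and robust fit, 198 were lower, the classes held 95, 72 and 265, OCI-AML3 had 107 falls, and 164 probe sets differed from 30 min. At an unadjusted p under 0.01 and 1.5-fold, 328 were higher and 311 lower, with classes of 188, 135 and 290. With a log2 difference of at least 1 they were 92 and 53, with 31, 23 and 91. A filter at the 30th percentile gave 78 that differed from 30 min. Centring each array on its median gave 191 higher and 82 lower (70% of calls higher, against 60.9% in the values above), and normalizing quantiles again within each line gave 177 and 88.

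Deviations of same-numbered arrays had r from -0.0145 to 0.081, while of 12 arrays, 8 correlated best with their own number. These values do not settle whether the numbers mark pairs. The fit behind the values above used no replicate block. With the replicate number as a block, 151 were higher and 90 lower, and 7 of the 79 lost the call. With a replicate block of the number within line and time, 98 were higher and 46 lower, HL-60 had 386 falls and OCI-AML3 73 rises and 13 falls, and 24 of the 79 lost the call, among them LAX1, RELB, TNFAIP3, NFE2L2, SLC7A11, RUNX1, MSMO1, ELOVL6, ALDH1L2 and CHAC1.

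Leaving out 1 array at a time gave 127 to 148 higher and 69 to 101 lower, 43 to 59 in treated levels only, 31 to 47 in untreated levels only, 119 to 143 in both, 423 to 561 rises and 381 to 627 falls in HL-60, 86 to 148 rises and 15 to 53 falls in OCI-AML3, and 28 to 48 that differed from 30 min. Counts moved by over 1.5 times were the 69 and the 15, without treated OCI-AML3 replicate 3, the 31 in untreated levels only and the 86, without untreated OCI-AML3 replicate 2, and the 381, without untreated HL-60 replicate 3. HL-60 falls were also 396 without its treated replicate 1 and 416 without its untreated replicate 2. OCI-AML3 rises were also 99 and 88 without its treated replicates 1 and 3 and 101 without its untreated replicate 1, and its falls 24 without treated replicate 1 and 17, 26 and 28 without untreated replicates 1, 2 and 3. Of the 79 named genes with a call, EGR1 and FCGR1A lost it in 11 of 12 such fits, DUSP1 and CITED1 in 10, PPP1R3B and E2F2 in 9, RELB, NRG1, ELOVL6, PLIN2, GFI1B and BCL2L11 in 8, IL13RA1 and ALDH1L2 in 7, ACSL1 in 6, NMRK1 in 5, CHAC1 in 4, PMAIP1, SLC7A11 and PIM2 in 3 and MSMO1 in 1.

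The last 3 alternatives were chosen after seeing the data. A filter at the negative control level gave 182 lower, 250 differing in both levels, 88 falls in OCI-AML3 and 89 that differed from 30 min. With the untreated arrays of 30 min in both lines, 212 were higher and 156 lower (119 and 56 of them among the called above), with 855 rises in HL-60 and 349 rises and 181 falls in OCI-AML3. PIM2 then changed sign to -0.0155 (adjusted p = 0.985) and RELA, not called before, to 0.0036. With them in OCI-AML3 alone, 250 were lower, the classes held 105, 97 and 269, OCI-AML3 had 349 rises and 181 falls, and RELA was 0.08.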

Other observations

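SLC2A3, a glucose transporter gene, had levels of 9.26, 9.37 and 9.48 in treated and 7.67, 7.54 and 7.56 in untreated HL-60 cells (log2), against 8.86, 9.01 and 9.02 in treated and 8.54, 8.49 and 8.53 in untreated OCI-AML3 cells. It rose in both lines with a difference of 1.33 (limma adjusted p = 2.35e-06). SLC2A14, a close copy whose probes may share signal with it, differed by 1.29, or by 0.83 (adjusted p = 0.0876) with untreated arrays of 30 min in both lines. The other 25 of 27 glycolysis and hypoxia genes were not called. PDE4B, which breaks down cyclic AMP, stood at 7.80, 7.94 and 8.18 in treated and 6.26, 6.36 and 6.42 in untreated HL-60 cells (log2), against 5.11, 5.43 and 5.39 in treated and 5.36, 5.19 and 5.03 in untreated OCI-AML3 cells. It rose in HL-60 with a difference of 1.51. DUSP2, a nuclear phosphatase of MAP kinases, was at 9.38, 9.54 and 9.37 in treated and 8.17, 8.09 and 7.93 in untreated HL-60 cells (log2), against 6.70, 6.30 and 6.85 in treated and 6.50, 6.57 and 6.75 in untreated OCI-AML3 cells. Its difference was 1.35. Of 20 MAPK and receptor feedback inhibitors it was the single one with a higher effect in HL-60, 2 had a lower one and 17 were not called. The lower ones were DUSP6 and DUSP1, and DUSP1 had -1.20, or -0.33 (limma adjusted p = 0.751) with untreated arrays of 30 min in both lines.

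Of 22 genes listed as neutrophil granule genes, 2 had a higher effect in HL-60. These were TCN1, which encodes a vitamin B12 binder (2.17), and CLC, the Charcot-Leyden crystal protein gene (1.44). CLC is a gene of eosinophils and basophils, so its call does not speak for neutrophil granules. Of 24 blood stem and progenitor regulators, 2 had a lower effect, RUNX1 (-0.54) and GFI1B (-1.22), both core factors of blood formation. In HL-60 6 fell, and in OCI-AML3 none did. Over all probe sets 2.95% fell in HL-60 and 0.247% in OCI-AML3, so the lack of falls among these 24 in OCI-AML3 says little. RUNX1 measured 10.56, 10.59 and 10.51 in treated and 11.22, 11.17 and 11.19 in untreated HL-60 cells (log2), against 10.71, 10.71 and 10.72 in treated and 10.86, 10.75 and 10.82 in untreated OCI-AML3 cells. The lines differed in untreated levels only, and with untreated arrays of 30 min in both lines RUNX1 had -0.32 (limma adjusted p = 0.167). GFI1B then had -0.35 (adjusted p = 0.703), TCN1 1.73 (0.0568) and CHAC1 -1.58 (0.0723). With these arrays in OCI-AML3 alone, GFI1B had -0.71 (adjusted p = 0.261) and CHAC1 -1.24 (0.168). CHAC1, a glutathione-degrading enzyme gene of the ATF4 response, rose in OCI-AML3 and differed by -1.91, while ALDH1L2, a mitochondrial folate enzyme gene of the same response, rose in HL-60 and differed by 1.07.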
